A study of Mus musculus with 6 samples.

Results

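The *Mef2* genes encode the 4 vertebrate MEF2 proteins, MADS-box transcription factors that bind A/T-rich sites in the control regions of muscle genes. MEF2 proteins have little myogenic activity alone and act in muscle together with the E-box-binding MYOD family, class IIa histone deacetylases hold them in a repressed state, and calcium and p38 MAP kinase signals release or activate them. *Mef2c* is the member best known for roles in skeletal and cardiac muscle development, *Mef2a* and *Mef2d* are expressed in many tissues including differentiated muscle, and *Mef2b* is best known from B lymphocytes. How the chromosome regions that hold these genes were placed in the nucleus was described here, for 4 genes in 4 separate bins out of 4727 autosomal bins of 500 kb with a value in every condition. A gene was placed in the bin that holds its transcription start site (TSS), so no value belongs to the gene alone, and levels of RNA were not analysed here.

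The cells were of the mouse myoblast line C2C12. Myoblasts (day 0) were proliferating at low density without AraC, myotubes were collected at day 3 of differentiation without AraC, and AraC-treated myotubes, written "after AraC" where values are given, were harvested at day 7 following treatment with 10 µg/ml AraC (cytosine arabinoside, which kills dividing cells). Each condition had 2 biological replicates of dilution Hi-C made with HindIII, 6 libraries in all, and the replicates had been pooled before the 3 deposited matrices were made. There is therefore 1 value per condition, no spread between replicates and no test between conditions, and every difference below is a description. All cultures share 1 cell line, the untreated myotube cultures still hold myoblasts, and day and AraC exposure change together, so a change within cells, a change in the mix of cells and an effect of AraC cannot be told apart.

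The bins of the 4 genes differ in gene number and base composition (mm10). *Mef2a* (ENSMUSG00000030557.17, chr7 67231163 to 67372858, minus strand) starts in the bin 67000001 to 67500000, whose only other protein-coding TSS is that of *Lysmd4*. *Mef2b* (ENSMUSG00000079033.10, chr8 70139711 to 70167488, plus strand) starts in the bin 70000001 to 70500000 with 24 protein-coding TSSs, *Armc6*, *Borcs8*, *Cers1*, *Comp* and *Cope* among them, and its start overlaps *Borcs8*. *Mef2c* (ENSMUSG00000005583.16, chr13 83504034 to 83667080, plus strand) is the only gene with a protein-coding TSS in the bin 83500001 to 84000000, and it starts 4033 bp inside the upstream edge of the bin. *Mef2d* (ENSMUSG00000001419.17, chr3 88142372 to 88172086, plus strand) starts in the bin 88000001 to 88500000 with 21 protein-coding TSSs, including those of the osteocalcin gene *Bglap* and the chaperonin gene *Cct3*. The median autosomal bin holds 2 protein-coding TSSs and 41.7% G and C bases. GC content was 51.1% in the *Mef2b* bin and 49.0% in the *Mef2d* bin, at the 99.3 and 95.8 percentiles, against 43.7% for *Mef2a* and 38.6% for *Mef2c*, at the 68.3 and 21.8 percentiles. HindIII sites, which set where di-tags can form, ran the other way, with 100 in the *Mef2b* bin, 113 for *Mef2d*, 144 for *Mef2a* and 180 for *Mef2c*, where the median bin has 162.

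The contrast in GC content between *Mef2c* and *Mef2d* is also seen in the bases just upstream of the genes. That between *Mef2a* and *Mef2b* is turned round there. The 250 bases before the RefSeq start (GRCm38.p6) are shown for *Mef2c* and *Mef2d*, the members at the opposite ends of the compartment scale below, 5′ to 3′ on the strand of the gene, with E-boxes (CANNTG, the same on both strands, bound by the MYOD family) in capitals.
Mef2c, chr13:83503784-83504033 (+): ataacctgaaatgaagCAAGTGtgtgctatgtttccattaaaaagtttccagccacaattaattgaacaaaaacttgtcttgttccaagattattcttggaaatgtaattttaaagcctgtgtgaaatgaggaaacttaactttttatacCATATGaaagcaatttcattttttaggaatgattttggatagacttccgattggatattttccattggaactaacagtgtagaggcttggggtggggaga
Mef2d, chr3:88142122-88142371 (+): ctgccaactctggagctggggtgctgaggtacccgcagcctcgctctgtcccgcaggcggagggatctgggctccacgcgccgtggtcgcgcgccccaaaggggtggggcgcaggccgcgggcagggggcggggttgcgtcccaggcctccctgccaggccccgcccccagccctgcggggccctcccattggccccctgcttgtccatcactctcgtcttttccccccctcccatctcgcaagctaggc
Of the 3 RefSeq starts listed for *Mef2c*, the one at the GENCODE gene start was taken. The *Mef2c* window has 33.6% GC, at the 3.50 percentile of 32841 promoter windows, with 1 CpG and 2 E-boxes. The *Mef2d* window has 73.2% GC, at the 94.3 percentile, with 19 CpGs and no E-box. The *Mef2a* window (chr7 67372859 to 67373108) has 61.6% GC, at the 75.7 percentile, with 21 CpGs and no E-box. The *Mef2b* window (chr8 70152511 to 70152760) has 56.0% GC, at the 61.3 percentile, with 9 CpGs and 1 E-box. The median window has 52.4% GC and 6 CpGs, and 66.2% of windows hold an E-box, so its presence is common. The RefSeq start of *Mef2b* lies 13050 bp downstream of the GENCODE gene start, in the same bin. The MEF2 consensus was found in 2.92% of these windows and in none of the 4. In the window of 300 bases that runs 50 bases past the start, 3.19% of promoters hold it, and *Mef2a* is the only one of the 4 that does: the site CTAAAAATAG (chr7:67372851-67372860, minus strand) begins 2 bases before the start of *Mef2a* itself. A match is a description of the letters and no evidence of binding.

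The kinds of value used are these. Each cell of a deposited matrix is a correlation coefficient between the interaction profiles of 2 bins, high where both contact the same regions. The first principal component (PC1) of the matrix of a chromosome separates the A compartment (values above 0, gene-rich and mostly active) from the B compartment (values of 0 or below, mostly inactive). The profile correlation is Pearson *r* between the row of a bin in 1 condition and its row in another, taken along its own chromosome. PC1 has a different spread in each matrix, with an SD over autosomal bins of 0.859 in myoblasts, 1.61 in myotubes and 1.36 after AraC, so sizes are compared as percentiles among the autosomal bins.

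*Mef2a*, *Mef2b* and *Mef2d* were in the A compartment in all 3 conditions, and *Mef2c* was in the B compartment in all 3. Thus 3 of 4 bins were in A in each condition, where 38.3% of autosomal bins were in A in myoblasts, 36.5% in myotubes and 35.5% after AraC. Over all conditions together 31.3% of bins stayed in A and 57.4% stayed in B.

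The *Mef2d* bin had the highest PC1 of the 4, at 1.89 in myoblasts, 3.58 in myotubes and 2.98 after AraC. Its percentiles were 95.8, 96.0 and 96.1, so its place among bins moved by less than 1 percentile. *Mef2b* came next, with PC1 of 1.61, 3.26 and 2.28 at percentiles 92.9, 94.1 and 90.2. *Mef2a* had PC1 of 1.05, 2.34 and 1.82 at percentiles 86.2, 87.8 and 85.6. The order *Mef2d*, *Mef2b*, *Mef2a*, *Mef2c* was the same in the 3 matrices.

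Gene number goes part of the way with this order. Of the 136 autosomal bins with 20 or more protein-coding TSSs, like those of *Mef2b* and *Mef2d*, 75.0% were in A in myoblasts and 72.8% in myotubes. Of the 523 bins with 2 protein-coding TSSs, like that of *Mef2a*, 33.1% were in A in myoblasts and 32.7% in myotubes, and 23.9% were in A in all 3 conditions, as *Mef2a* was. Of the 786 bins with 1 protein-coding TSS, like that of *Mef2c*, 71.8% were in B in all 3 conditions. *Mef2a* is therefore the member whose compartment is less frequent among bins with its number of genes.

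The *Mef2c* bin had PC1 of -0.531 in myoblasts, -0.935 in myotubes and -0.651 after AraC. Its percentile was 31.1, 35.6 and 44.4. By PC1 percentile it was thus higher among bins in each later condition without leaving B. The 44.4 percentile lay well below the point where PC1 crosses 0, since 35.5% of bins were in A in that matrix. No range between replicates exists against which this rise of 13.3 percentiles could be set.

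**Figure D1:**
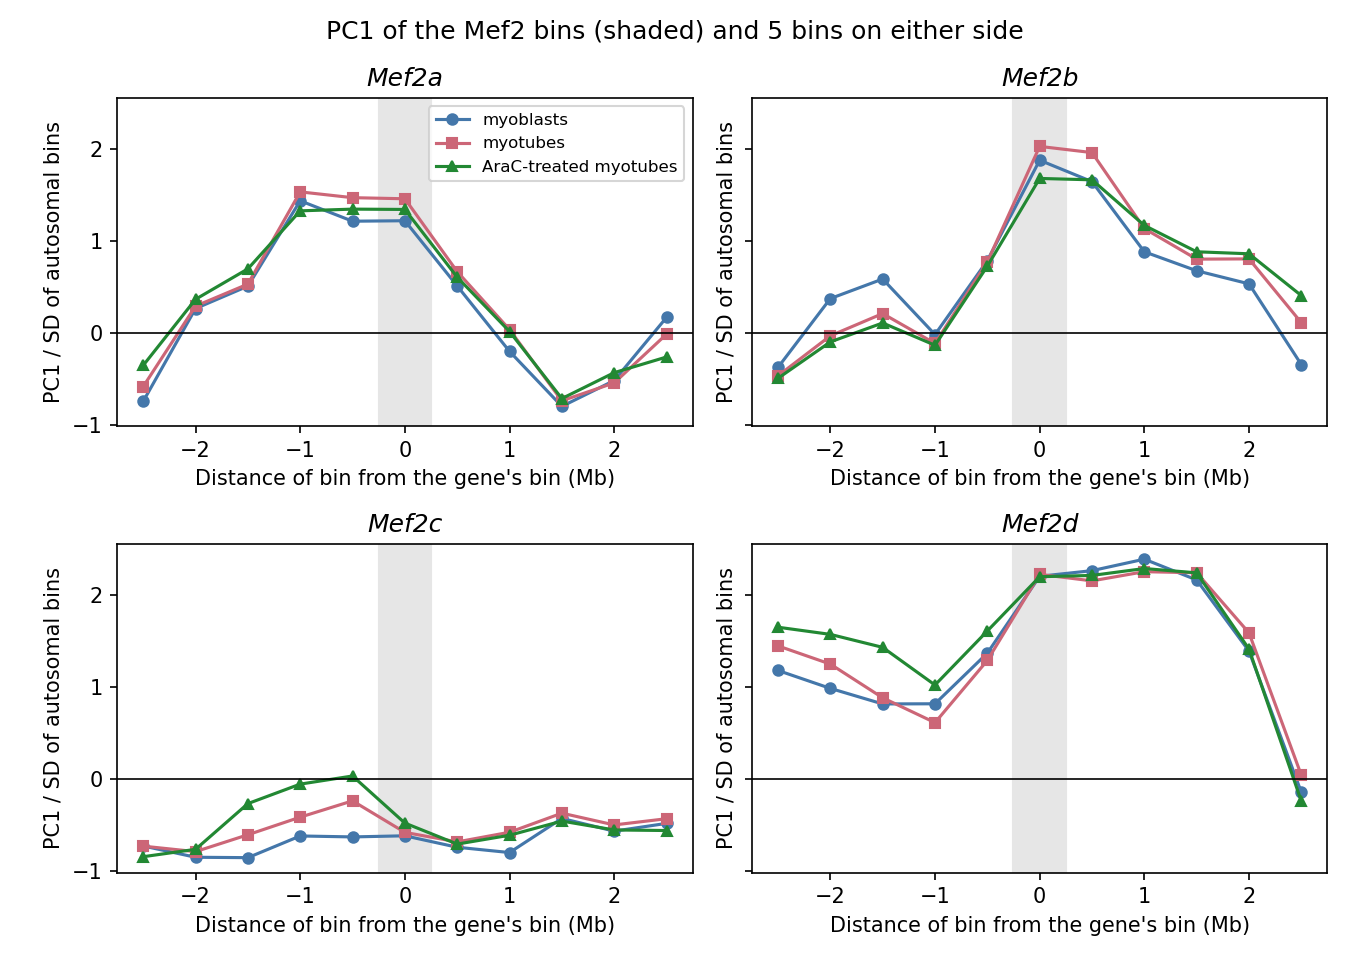
PC1 divided by the SD of PC1 over autosomal bins (y axis) for the bin of each *Mef2* gene (shaded) and the 5 bins of 500 kb on either side (x axis, distance in Mb along the chromosome), with 1 line per condition and 1 pooled value per point. The *Mef2d* and *Mef2b* bins sit at or near the top of their windows in every condition, whereas the *Mef2c* window lies below 0 except for the bin 0.5 Mb upstream of the gene in AraC-treated myotubes, where PC1 is 0.0436.

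None of the 4 bins changed the sign of PC1 between any 2 conditions. Among autosomal bins 7.32% changed sign between myoblasts and myotubes, 10.2% from myoblasts to the AraC-treated cells, and 5.12% between the 2 myotube conditions, so 0 of 4 is what shares of this size mostly give. The same compartments were found when the component was computed from the coefficients with bins of other chromosomes. Those coefficients rest on the same interaction profiles of the bins, so this is no independent check.

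The interaction profiles of the 4 bins were largely kept. Between myoblasts and myotubes *r* was 0.938 for *Mef2d*, 0.928 for *Mef2b*, 0.925 for *Mef2a* and 0.857 for *Mef2c*, where the median bin had 0.877. Between myoblasts and AraC-treated myotubes *r* was 0.912 for *Mef2a*, 0.898 for *Mef2b*, 0.877 for *Mef2d* and 0.837 for *Mef2c*, against a median of 0.839. Between the myotube conditions *r* was 0.980 for *Mef2b*, 0.972 for *Mef2a*, 0.969 for *Mef2d* and 0.930 for *Mef2c*, against 0.947. The 3 A bins lay above the median in each pair and *Mef2c* below it, at the 43.1, 49.1 and 36.1 percentiles. None was below 0, where 3.26%, 5.8% and 1.16% of autosomal bins were in the 3 pairs in that order. Over the bins of all other chromosomes, the *r* of *Mef2b* and *Mef2d* was higher still relative to other bins: between myoblasts and AraC-treated myotubes it was 0.928 and 0.927, at the 99 and 98.7 percentiles, while it was 0.871 for *Mef2a* and 0.720 for *Mef2c*, at the 85.5 and 37.7 percentiles.

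**Figure D2:**
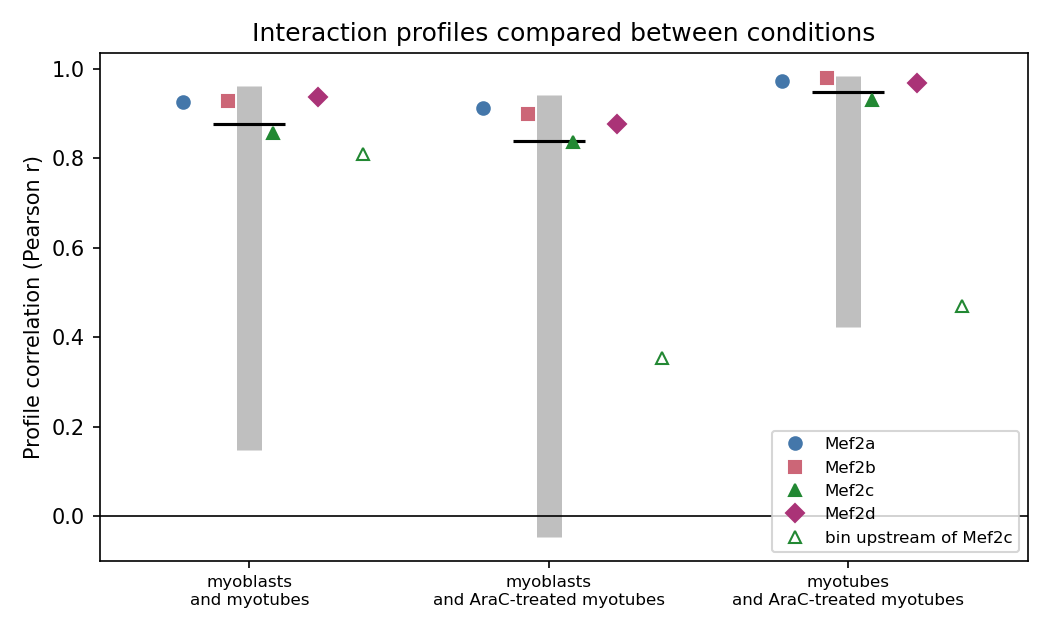
Pearson *r* between the interaction profiles of a bin in 2 conditions (y axis) for the 3 pairs of conditions (x axis). Filled symbols are the 4 *Mef2* bins, the open triangle is the bin just upstream of *Mef2c*, black lines are the medians of 4727 autosomal bins, and grey bars run from their 5th to their 95th percentile. The filled symbols lie between 0.837 and 0.980, and the open triangle falls to 0.353 between myoblasts and AraC-treated myotubes.

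Upstream of *Mef2c*, the nearest bins moved farther among bins than the gene's own bin did. The 1.5 Mb just upstream of that bin, in 3 bins with no protein-coding TSS, rose in PC1 percentile from myoblasts to myotubes and again to AraC-treated myotubes. Annotated there are noncoding genes, *Gm4936* among those of chr13 82000001 to 82500000, *Mir3961* in the next bin, and *2310067P03Rik* and *Gm48156* in the bin 83000001 to 83500000. The bin 83000001 to 83500000, which ends 4033 bp short of the *Mef2c* start, had PC1 of -0.541 in myoblasts, -0.383 in myotubes and 0.0436 after AraC. Its percentile was 30.1, 56.0 and 65.0, and it is the only bin of the 11 in the *Mef2c* window that crossed 0. Crossings from B to A made up 2.77% of autosomal bins between myoblasts and myotubes, 3.72% from myoblasts to the AraC-treated cells and 2.05% between the 2 myotube conditions.

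The bin 1.0 Mb upstream had PC1 of -0.533, -0.669 and -0.0763, at percentiles 31.0, 47.7 and 62.9. The bin 1.5 Mb upstream had PC1 of -0.735, -0.977 and -0.364, at percentiles 13.8, 33.5 and 55.4. Both bins also rose in rank at each step, and stayed in B. Their PC1 itself was further below 0 in myotubes, the matrix with the wider spread, than in myoblasts.

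The rise of the nearest bin between myoblasts and AraC-treated myotubes was equalled or exceeded by 53 of the autosomal bins (1.12%). These bins were picked from the *Mef2c* window after their values were seen. On the next bin upstream, chr13 81500001 to 82000000, which holds the start of *Adgrv1*, the percentile was 14, 17.3 and 19.2. On the other side of *Mef2c*, the bin of *Tmem161b* (84000001 to 84500000) had percentiles of 21.0, 26.3 and 23.9. The next bin downstream (84500001 to 85000000, with no protein-coding TSS) rose from the 17 percentile in myoblasts to 35.8 in myotubes, about as far as the upstream bins in that step, and was at 32.7 after AraC. A rise at both steps that ended above the 50th percentile was thus seen in the 3 upstream bins and in no other bin of the *Mef2c* window. It is not particular to them, since bins in the windows of other members had it too. Among these, chr7 64500001 to 65000000 in the *Mef2a* window was at the 20.7, 35.2 and 51.7 percentiles. In the *Mef2b* window, chr8 72500001 to 73000000 was at 48.8, 66.4 and 71.8.

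Coefficients with bins of other chromosomes did not enter the PC1 of chr13, though they rest on the same interaction profiles of its bins. The mean coefficient of the bin next to *Mef2c* with the A bins of other autosomes was -0.0211 in myoblasts, -0.0331 in myotubes and -0.00388 after AraC, and with their B bins it was 0.0165, 0.0261 and -0.00158. Its preference for B was thus larger in myotubes, the matrix with the wider spread, than in myoblasts, and the percentile of the difference between the A and B means was 39.9, 57.2 and 66.3. In AraC-treated myotubes it leaned to neither compartment, and its value above 0 on PC1 was small. The SD of its coefficients over other autosomes was 0.0267, 0.0376 and 0.0184, the lowest being that in AraC-treated myotubes. The *Mef2c* bin itself kept a preference for B, with that percentile at 40.3, 34.9 and 47.5. Unlike its PC1 percentile, this one was lower in myotubes than in myoblasts. Its mean coefficients were -0.0191, -0.0625 and -0.0473 with A bins and 0.0180, 0.0565 and 0.0321 with B bins.

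Profiles of the 3 upstream bins were less alike than that of *Mef2c* in the pairs with the AraC-treated cells. For the nearest bin *r* was 0.809 between myoblasts and myotubes, 0.353 from myoblasts to the AraC-treated cells and 0.471 between the myotube conditions, at the 33.6, 14 and 5.86 percentiles. Over other chromosomes its *r* was 0.755, 0.0804 and 0.178, at the 35.2, 8.63 and 2.73 percentiles. For the bins 1.0 and 1.5 Mb upstream, *r* between myoblasts and AraC-treated myotubes was 0.612 and 0.785, and between the myotube conditions it was 0.656 and 0.855. Between myoblasts and myotubes these bins had *r* of 0.863 and 0.895, above the 0.857 of *Mef2c*. The lowest of these values fall in the pairs with the matrix in which the SD of the nearest bin was smallest, and the part of counting noise in them was not tested, since the di-tags behind each bin are not in the matrices.

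**Figure D3:**
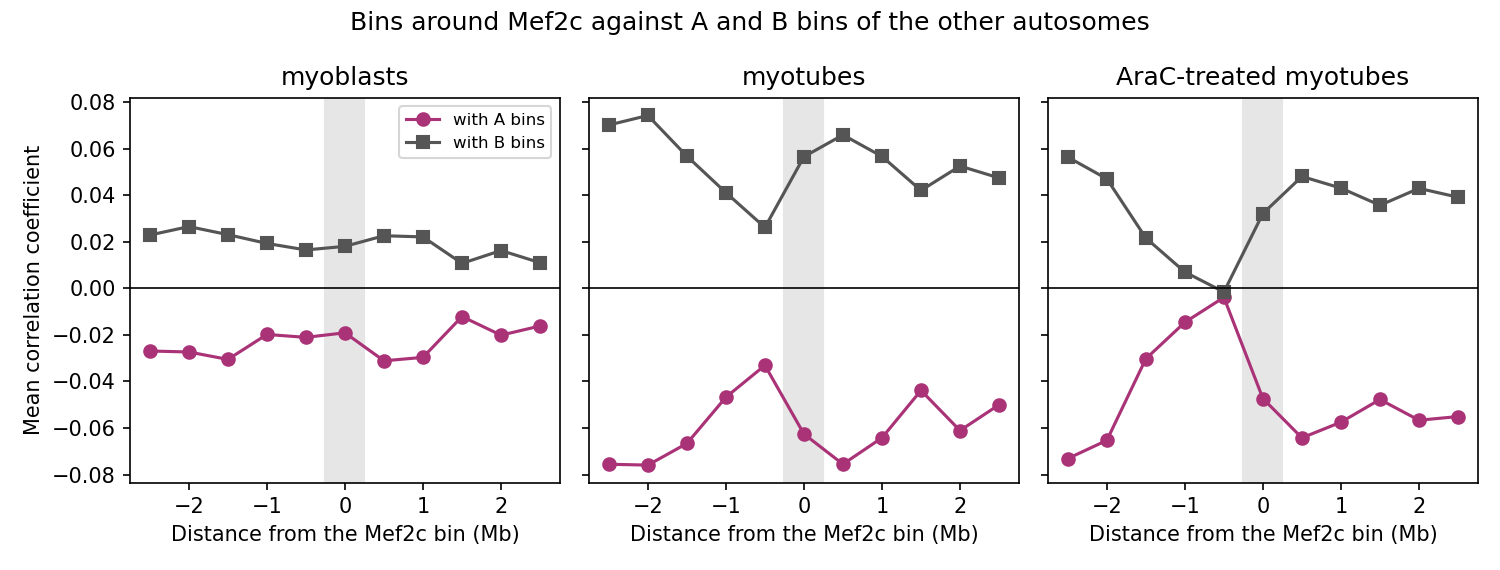
Mean correlation coefficient (y axis) of the *Mef2c* bin (shaded) and the 5 bins on either side (x axis, Mb) with the A bins (circles) and the B bins (squares) of the other autosomes, 1 panel per condition. The lines are apart on both sides of the gene in every panel and meet at the bin 0.5 Mb upstream in AraC-treated myotubes, where the values are -0.00388 and -0.00158.

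Around the other members the changes lay away from the gene bins. In the *Mef2d* window 10 of 11 bins were in A in myoblasts, 11 in myotubes and 10 after AraC, and the only bin that changed was the outermost (90500001 to 91000000, with *S100a1*), at PC1 -0.125, 0.0645 and -0.329. The *Mef2d* bin and the 3 bins downstream of it formed a stretch with similar profiles: its coefficients with the bins 0.5, 1.0 and 1.5 Mb away were 0.416, 0.439 and 0.378 in myoblasts, 0.573, 0.605 and 0.549 in myotubes, and 0.455, 0.450 and 0.414 in AraC-treated myotubes. The coefficients of *Mef2c* with the 10 other bins of its window reached 0.0679, 0.122 and 0.108 at most.

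In the *Mef2b* window 8 of 11 bins were in A in each condition, and the changes were at its ends. The bin of *Psd3* and *Sh2d4a* (68000001 to 68500000) went from PC1 of 0.319 in myoblasts to -0.0544 in myotubes and -0.136 after AraC, and its profile correlation with myoblasts was -0.399 and -0.392. The next bin, with the lipoprotein lipase gene *Lpl*, stayed in A at 0.501, 0.335 and 0.144, and its *r* with myoblasts was -0.0411 and -0.273. At the other end, the bin of *Med26*, a subunit of the Mediator complex, and *Sin3b*, a corepressor (72500001 to 73000000), went from B to A at -0.298, 0.174 and 0.548, with *r* of -0.472 between myoblasts and AraC-treated myotubes. Both outer stretches moved in opposite directions while *Mef2b*, between them, remained at or above the 90.2 percentile.

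In the *Mef2a* window 7 of 11 bins were in A in each condition. Just upstream of *Mef2a*, which is read from the minus strand, the bin of *Igf1r*, the receptor for insulin-like growth factor 1, was in A at PC1 of 0.437, 1.07 and 0.819, with *r* of 0.641, 0.556 and 0.832 in the 3 pairs. The bin of *Fam169b* and *Pgpep1l*, 1.0 Mb from *Mef2a*, went from -0.174 to 0.0542 and 0.0175, close to 0 in each matrix. The outermost bin, with no protein-coding TSS, went from 0.143 to -0.0254 and -0.359. Over the 4 windows 5 of 44 bins (11.4%) changed sign between myoblasts and myotubes, 5 (11.4%) from myoblasts to the AraC-treated cells, and 2 (4.55%) between the myotube conditions. Neighbouring bins are not independent, and these shares stand beside 7.32%, 10.2% and 5.12% of all autosomal bins.

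Coefficients between bins of different chromosomes separated the members in the same way as PC1. The *Mef2d* bin had the widest preference, with a mean coefficient of 0.122 with the A bins and -0.0681 with the B bins of other autosomes in myoblasts, 0.210 and -0.153 in myotubes and 0.169 and -0.114 after AraC. The difference of A and B means was 0.138, 0.304 and 0.208 for *Mef2b*, 0.0740, 0.192 and 0.139 for *Mef2a*, and -0.0371, -0.119 and -0.0794 for *Mef2c*. All 4 differences were farthest from 0 in myotubes, as was the SD of all coefficients between autosomes, at 0.0446, 0.0890 and 0.0732.

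The highest-ranked partners on other autosomes, by the mean coefficient over the 3 conditions, were gene-rich A bins for *Mef2b* and *Mef2d*. For *Mef2d* they were chr15 76000001 to 76500000 (with *Bop1*, *Cyc1* and *Exosc4*), at 0.488, chr8 122500001 to 123000000, at 0.485, and chr19 5000001 to 5500000, at 0.484. The chr8 bin holds the gene of the muscle adhesion protein M-cadherin, *Cdh15*, beside *Acsf3*, *Aprt*, *Cbfa2t3* and *Cdt1*. For *Mef2b* they were 2 adjoining bins of chr10 from 80000001 to 81000000, at 0.368 and 0.364, and the same chr15 bin as for *Mef2d*, at 0.361. For *Mef2a* they were chr15 99500001 to 100000000, the aquaporin bin with *Aqp2*, *Aqp5* and *Aqp6*, at 0.211, the chr16 bin whose only protein-coding TSS is that of the transcription factor gene *Runx1*, at 0.203, and the chr17 bin of *Ppard*, a nuclear receptor, at 0.201.

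The partners of *Mef2c* were B bins with lower coefficients. They were chr7 138000001 to 138500000 with *Tcerg1l*, at 0.0742, chr11 33000001 to 33500000 with *Fgf18*, *Npm1* and *Tlx3*, at 0.0733, and a chr15 bin with no protein-coding TSS, at 0.0712. Of the 100 highest partners in each condition, all 100 were in A for *Mef2a*, *Mef2b* and *Mef2d*, and 1, 0 and 0 for *Mef2c*. Between myoblasts and myotubes the 100 highest partners had 79 bins in common for *Mef2d*, 72 for *Mef2b*, 44 for *Mef2a* and 5 for *Mef2c*. Between myoblasts and AraC-treated myotubes they had 74, 69, 35 and 2 in common. The single partners that ranked first thus differed more between the matrices for *Mef2c* than for *Mef2d*. Shared counts were not computed over all autosomal bins or for bins drawn at random, so no base level stands beside them. In myoblasts the 100 highest coefficients ran from 0.04605 to 0.06586 for *Mef2c* and from 0.3251 to 0.4195 for *Mef2d*. The coefficients of *Mef2c* with other autosomes also had the smallest SD, at 0.0263 against 0.117 for *Mef2d* in myoblasts.

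The *Mef2* bins lie on 4 chromosomes and form 6 pairs. Of these 6, *Mef2b* and *Mef2d* had the most similar profiles, with coefficients of 0.246 in myoblasts, 0.452 in myotubes and 0.261 after AraC. These stood at the 99.7, 99.8 and 99.2 percentiles of 10547562 pairs of bins on different autosomes. *Mef2a* and *Mef2d* had 0.120, 0.249 and 0.132, at the 98.1, 98.6 and 96.9 percentiles, and *Mef2a* and *Mef2b* had 0.0711, 0.238 and 0.135, at the 95.7, 98.4 and 97.0 percentiles. These 3 pairs passed the 90th percentile in each condition, where 10% of pairs do by definition. With each bin replaced by the mean with its neighbours, *Mef2a* and *Mef2b* fell short of it in myoblasts, at 0.0440 against 0.0463. The 3 pairs are those of A bins, while the percentiles are over all pairs, whatever the compartment. Of all pairs 57.1%, 58.4% and 56.1% had a coefficient above 0. By the mean over the 3 conditions, *Mef2b* ranked 303 of 4415 partner bins of *Mef2d*, and *Mef2d* ranked 49 of 4478 for *Mef2b*. *Mef2a* ranked 733 for *Mef2d* and 663 for *Mef2b*. For *Mef2a*, *Mef2d* ranked 130 and *Mef2b* 273 of 4462. Other bins thus had higher coefficients with each of them.

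The 3 pairs with *Mef2c* were below 0 in each condition. With *Mef2d* the coefficients were -0.0558, -0.159 and -0.106, at the 6.81, 3.17 and 7.43 percentiles. With *Mef2b* they were -0.0342, -0.117 and -0.0652, and with *Mef2a* they were -0.0250, -0.0979 and -0.0740. Each of the 6 coefficients was farthest from 0 in myotubes, the matrix with the widest spread of coefficients.

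**Figure D4:**
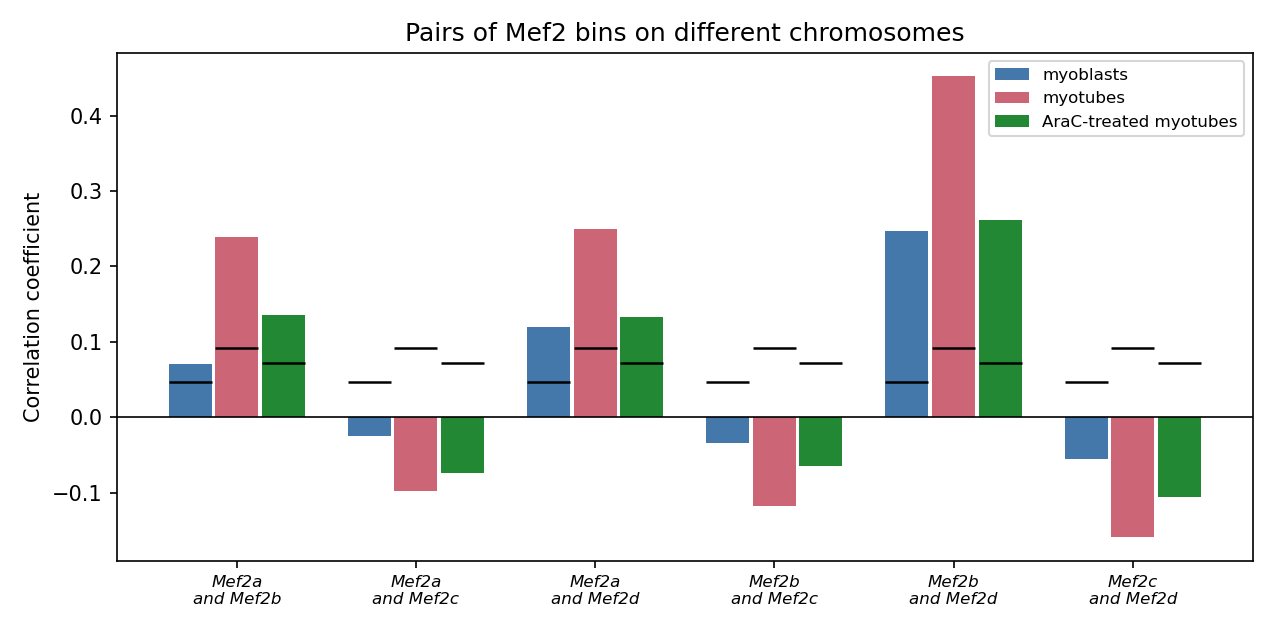
Correlation coefficient (y axis, bars from 0) between the bins of each pair of *Mef2* genes (x axis) in the 3 conditions, 1 pooled value per bar. Black lines mark the 90th percentile of all pairs of bins on different autosomes in that condition (0.0463, 0.0922 and 0.0725), which the 3 pairs without *Mef2c* exceed and the 3 pairs with *Mef2c* do not reach.

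The genes of the MYOD family, the DNA-binding partners of MEF2 in muscle, were split between compartments like the *Mef2* genes. *Myog* (myogenin) had PC1 of 2.28, 4.08 and 3.44 at percentiles 98.5, 98.3 and 98.9, above every *Mef2* bin by this measure. With the component computed from other chromosomes it was below *Mef2d*, at percentiles 97.7, 97.0 and 97.7 against 99.1, 99.8 and 99.0. *Myod1* had 1.22, 2.47 and 2.04 at percentiles 88.4, 88.5 and 88.0, between *Mef2a* and *Mef2b*. *Myf5* and *Myf6*, which share a bin of chr10, were in B at -0.396, -0.835 and -0.746, at percentiles 42.7, 41.0 and 38.9. Unlike the percentile of *Mef2c*, that of *Myf5* and *Myf6* was lower in each later condition, by 3.81 percentiles between myoblasts and AraC-treated myotubes. This direction turned when the component was computed from other chromosomes, where their bin was at the 31.2, 35.8 and 39.1 percentiles and *Mef2c* at 23.9, 27.9 and 43.4. The difference between the 2 bins was not tested, having no replicates.

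Genes that act on MEF2, with it or under it were placed in the same way. Of 35 autosomal genes, 28 were in A in myoblasts, 28 in myotubes and 27 after AraC, where 38.3%, 36.5% and 35.5% of all autosomal bins were. Of bins with 20 or more protein-coding TSSs 75.0%, 72.8% and 69.9% were, and the listed bins hold from 1 to 43. The bin shared by *Myf5* and *Myf6* counts for each of them. No gene of these lists changed sign between myoblasts and myotubes, and 1 did from myoblasts to the AraC-treated cells, beside 7.32% and 10.2% of all autosomal bins. The median *r* over the lists was 0.931, 0.904 and 0.973 in the 3 pairs, beside 0.877, 0.839 and 0.947 over all autosomal bins. The lists were chosen by known function, and nothing is called particular to them.

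All 5 repressors were in A in myoblasts. *Hdac4* and *Hdac5*, class IIa histone deacetylases that bind MEF2 directly, stayed at or above the 97.7 percentile. *Hdac7* rose from the 80.3 percentile in myoblasts to 86.7 in myotubes and 90.2 after AraC. *Hdac9*, the fourth deacetylase of this class, moved the other way, with PC1 of 0.395, 0.262 and -0.0205 and percentiles of 73.8, 67.5 and 64.0. It is the only listed gene whose bin changed compartment, with PC1 close to 0 after AraC, and its *r* with myoblasts was -0.0933 in myotubes and -0.233 after AraC. Placed by the middle of the gene, *Hdac9* changed sign between myoblasts and myotubes instead. *Cabin1*, a repressor released by calcium signals, had percentiles of 85.9, 83.4 and 81.6.

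Of the 9 activators and coactivators 7 were in A in each condition. *Ppp3ca*, a catalytic subunit of calcineurin, which dephosphorylates MEF2, had PC1 of 0.451, 0.388 and 0.0968, and its *r* was 0.395 between myoblasts and myotubes, -0.253 from myoblasts to the AraC-treated cells and -0.00601 between the myotube conditions. *Mapk14*, the p38α kinase, was at the 97.0, 94.4 and 94.5 percentiles and *Crebbp*, an acetyltransferase, at 83.6, 89.0 and 89.6. *Prkd1*, a kinase that drives the deacetylases out of the nucleus, and *Ncoa2*, a coactivator, were the 2 in B, at percentiles of 23.8, 27.6 and 19.6 and of 56.3, 49.0 and 51.9.

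Of the 14 autosomal target genes 11 were in A in each condition, among them *Ckm* (muscle creatine kinase, percentiles 83.1, 81.5 and 76.6), *Des* (desmin, 85.2, 89.1 and 86.2) and *Myl2* (a myosin light chain, 99.2, 98.4 and 98.8). *Smyd1*, a muscle methyltransferase and MEF2C target, stayed in B with the largest rise of the 35 genes between myoblasts and myotubes, from the 33.8 to the 49.7 percentile, and reached 54.5 in AraC-treated myotubes. *Meg3*, a noncoding RNA gene, stayed in B at percentiles of 38, 33.1 and 53.9, and *Ppargc1a*, a regulator of mitochondrial genes, at 48.7, 46.6 and 47.0. *Myom1*, a sarcomere protein gene, fell in rank within A, from 81.4 to 75.8 and 70.4. *Jun* rose by 5.75 percentiles between myoblasts and myotubes and was back at 69.2 in AraC-treated myotubes. Of the 35 genes 13 had a higher percentile in myotubes than in myoblasts, where 48.3% of all bins did, and 11 had a higher one after AraC than in myoblasts, where 47.2% did.

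**Figure D5:**
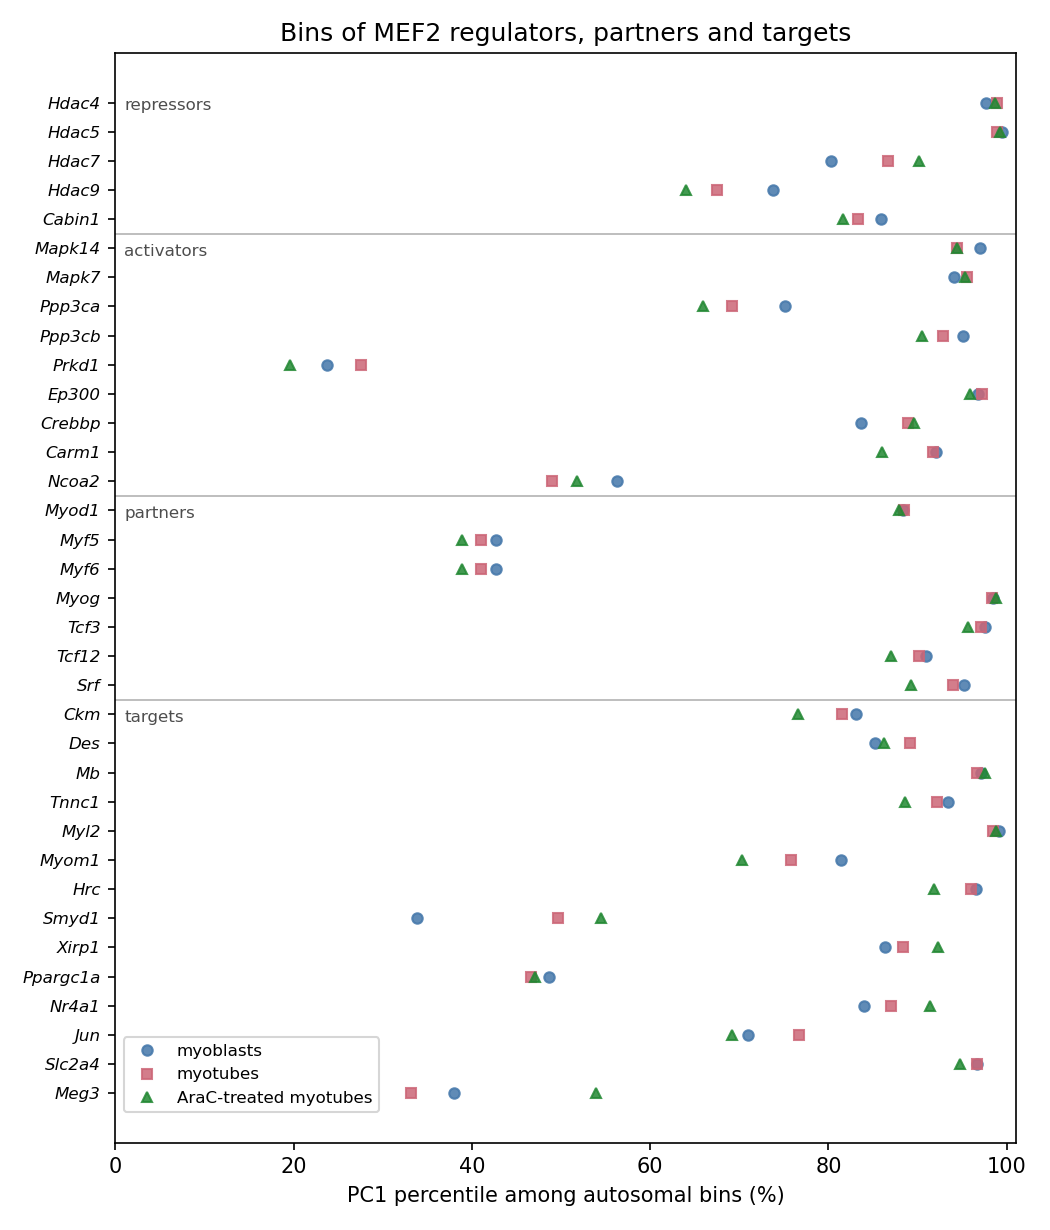
PC1 percentile among autosomal bins (x axis) of the bins of 35 genes (y axis), grouped as repressors, activators, partners and targets of MEF2, with 1 symbol per condition. Most genes lie above the 80th percentile with their 3 symbols close together, and *Smyd1*, *Meg3*, *Hdac7*, *Hdac9* and *Myom1* are among those whose symbols lie apart.

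Of the 4 *Mef2* bins, that of *Mef2d* had the highest mean coefficient with the target bins on other chromosomes. It was 0.146 in myoblasts, 0.235 in myotubes and 0.179 after AraC, which stood at the 99, 99.4 and 99.7 percentiles of the 312 bins of chr3. For *Mef2b* it was 0.117, 0.198 and 0.121, and for *Mef2a* 0.0520, 0.105 and 0.0669. For *Mef2c* it was -0.0206, -0.0692 and -0.0440, at the 31.6, 21.6 and 42.0 percentiles of the 231 bins of chr13. The order is that of PC1 of the 4 bins, and 11 of the 14 target genes were themselves in A. Means with the *Mef2d* bin were higher for each other list than for the targets. They were 0.173, 0.290 and 0.221 for repressors and 0.186, 0.311 and 0.229 for activators. For partners they were 0.226, 0.339 and 0.244, so closeness to *Mef2d* was not particular to targets.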

How the data were processed

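Hi-C was measured in C2C12 myoblasts, myotubes and AraC-treated myotubes, with 2 replicates each. By the methods of the study and the processing notes of the submitters, reads were aligned to mm10 with bowtie in HiCUP, and replicates were pooled and normalized in HOMER. GRCh38 is named there beside mm10, but chromosome lengths of the bins fit mm10: all 20 chromosomes compared end at the mm10 end or, for 6, 1 bin before it. The authors deposited 1 table per condition, whose values are scores between bins of 500 kb, read here as Pearson correlation coefficients. The number of di-tags behind a value is not in the tables, so no precision is given. Columns of unmapped samples numbered 0.

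PC1 was computed per chromosome (Python 3.11.15, NumPy 2.4.6), from centred, unscaled columns, with its sign set by protein-coding TSSs (GENCODE vM21, GRCm38), and percentiles are over 4727 autosomal bins. Genes were placed by TSS, *Srpk3* on chromosome X was left out of the counts, and promoters are from RefSeq GRCm38.p6 (4 of 4 matched). Named were the 4 genes and genes of their bins, 5 bins on either side, the 3 highest partners, listed genes that changed sign, had *r* below 0 or the 2 highest and lowest percentile changes, the MYOD family, and some list members added as examples after their values were seen. Scripts were tested on simulated data. The members and lists were chosen with earlier results of these data known.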

Additional observations from a re-analysis of the deposited data

How the results depend on the processing

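No paired analysis was possible because the replicates had been pooled before deposit, and for the same reason no replicate could be left out. The compartment of each *Mef2* bin, the count of 0 sign changes and the count of 0 profiles with *r* below 0 held under the alternatives run for each: gene middle or all transcript starts, the sign set by GC content, columns not centred, odd or even partner bins, partners over 2 Mb away, other chromosomes only, rank correlation and *r* below 0.2. Sizes moved, as *r* of *Mef2c* between myoblasts and AraC-treated myotubes did, from 0.720 to 0.842. Of the single values under these settings 123 moved and 81 did not, and none changed sign. The named partners depended on the ranking: of the 12 chosen by the mean of the 3 conditions, 5 remained when ranked in myoblasts, 7 in myotubes and 3 after AraC. With genes placed by their middle, 1 repressor (*Hdac9*), the only gene over all lists, changed sign between myoblasts and myotubes in place of 0. Between the myotube conditions 0 genes did in place of 1. Of the pairs of *Mef2* bins in myoblasts, 2 in place of 3 passed the 90th percentile with the mean over neighbouring bins. The mean of PC1 with the upstream bin, added after the data were seen, kept the sign of each bin.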
